A study of Mus musculus with 2 samples.

Results

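Genes of desmosomes, tight junctions and gap junctions were followed through the cell classes of mouse maxillary periodontium, the tissue that holds the upper teeth. The members were all genes whose symbol is Dsg, Dsc, Pkp, Cldn, Gja, Gjb or Gjc followed by a digit, with 1 connexin gene not analysed here. They numbered 60 of the 32285 genes in the files: 6 desmogleins, 3 desmocollins, 4 plakophilins, 32 claudins and 15 connexins. Single cells came from 2 droplet libraries of this tissue, which carry the titles 377P and RP. The series title speaks of diabetic periodontitis and its resolution. The labels give no strain, genotype, age, treatment or number of animals and leave the meaning of the titles unstated, so neither library serves as a control. With 1 library per title no test was made, and every difference between them is one between libraries, not between conditions.

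Desmosomes are spot-like junctions in which desmogleins and desmocollins, the desmosomal cadherins, bind their counterparts on the next cell, while plakophilins, plakoglobin and desmoplakin tie them to keratin filaments. Claudins form the strands of tight junctions and set which ions and solutes pass between cells. Connexins form gap junction channels through which neighbouring cells exchange ions and small molecules. Stratified oral epithelium, salivary gland, vessels and nerve are each known to use their own members of these families.

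Levels are counts of unique molecular identifiers (UMIs) summed over the cells of a class and given per 1000000 UMIs of that class (CPM). Where a pair of values is given without naming the libraries, 377P comes first and RP second. Intervals in brackets are exact 95% Poisson intervals of a count or of a ratio of counts, and cover counting error only. After filtering, 14515 cells of 377P (median 5102 UMIs) and 16721 of RP (median 4301) were kept. A total of 82 barcodes occurred in both libraries. Classes were named from marker genes that include no member, and the members were left out of the genes used for clustering. The markers detected ran from 12 of 12 for both clusters of suprabasal keratinocytes and 8 of 9 for the basal clusters to 4 of 10 for nasal secretory cells and 4 of 8 for odontogenic epithelium. Cells of the libraries seldom shared a keratinocyte cluster: basal cells lay in cluster 6 in 377P and in clusters 40 and 36 in RP, and suprabasal cells in cluster 7 in 377P and 39 in RP. Most fibroblasts lay in clusters 5 and 16 in 377P but in 44 and 34 in RP. For B or plasma cells these were 4 and 13 against 42, and for T or NK cells 11 against 45. Clusters 8, 14, 15, 18 and 32 of these classes were shared more evenly. Cluster 17, with 3 and 905 cells, was left unnamed, though 8 of 8 markers of its best-scoring list were detected. Library comparisons of fibroblasts and lymphocytes thus rested largely on different clusters. Epithelia other than keratinocytes differed in make-up. There were 561 gland or respiratory cells in 377P, of which 415 were nasal secretory. RP had 2454, of which 1073 were mucous gland and 1250 demilune gland. The demilune cells of RP were shallow, with a median of 662 UMIs against 4301 over all kept cells of RP.

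Of the 60 members, 45 had at least 20 UMIs over both libraries, 38 had at least 20 in each, and 11 had at least 10000 over both. Another 11 had 1 to 19 UMIs and 4 claudins had none. Among the members with 1 to 19 UMIs were Dsg1c, Dsg4, the connexin Gja10 and the claudins Cldn13, Cldn16, Cldn24, Cldn34a, Cldn34b2, Cldn34c2 and Cldn34d. Those with none were Cldn34b1, Cldn34b3, Cldn34b4 and Cldn34c4. Members were also sorted by the named class in which they stood highest. In both libraries that class was a keratinocyte class for 10 members, gland or respiratory epithelium for 7, endothelium for 5, Schwann cells for 2 and pericytes for 1. The tissue differed between the libraries for 13, and 22 had too few UMIs to be placed in both.

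**Figure D1:**
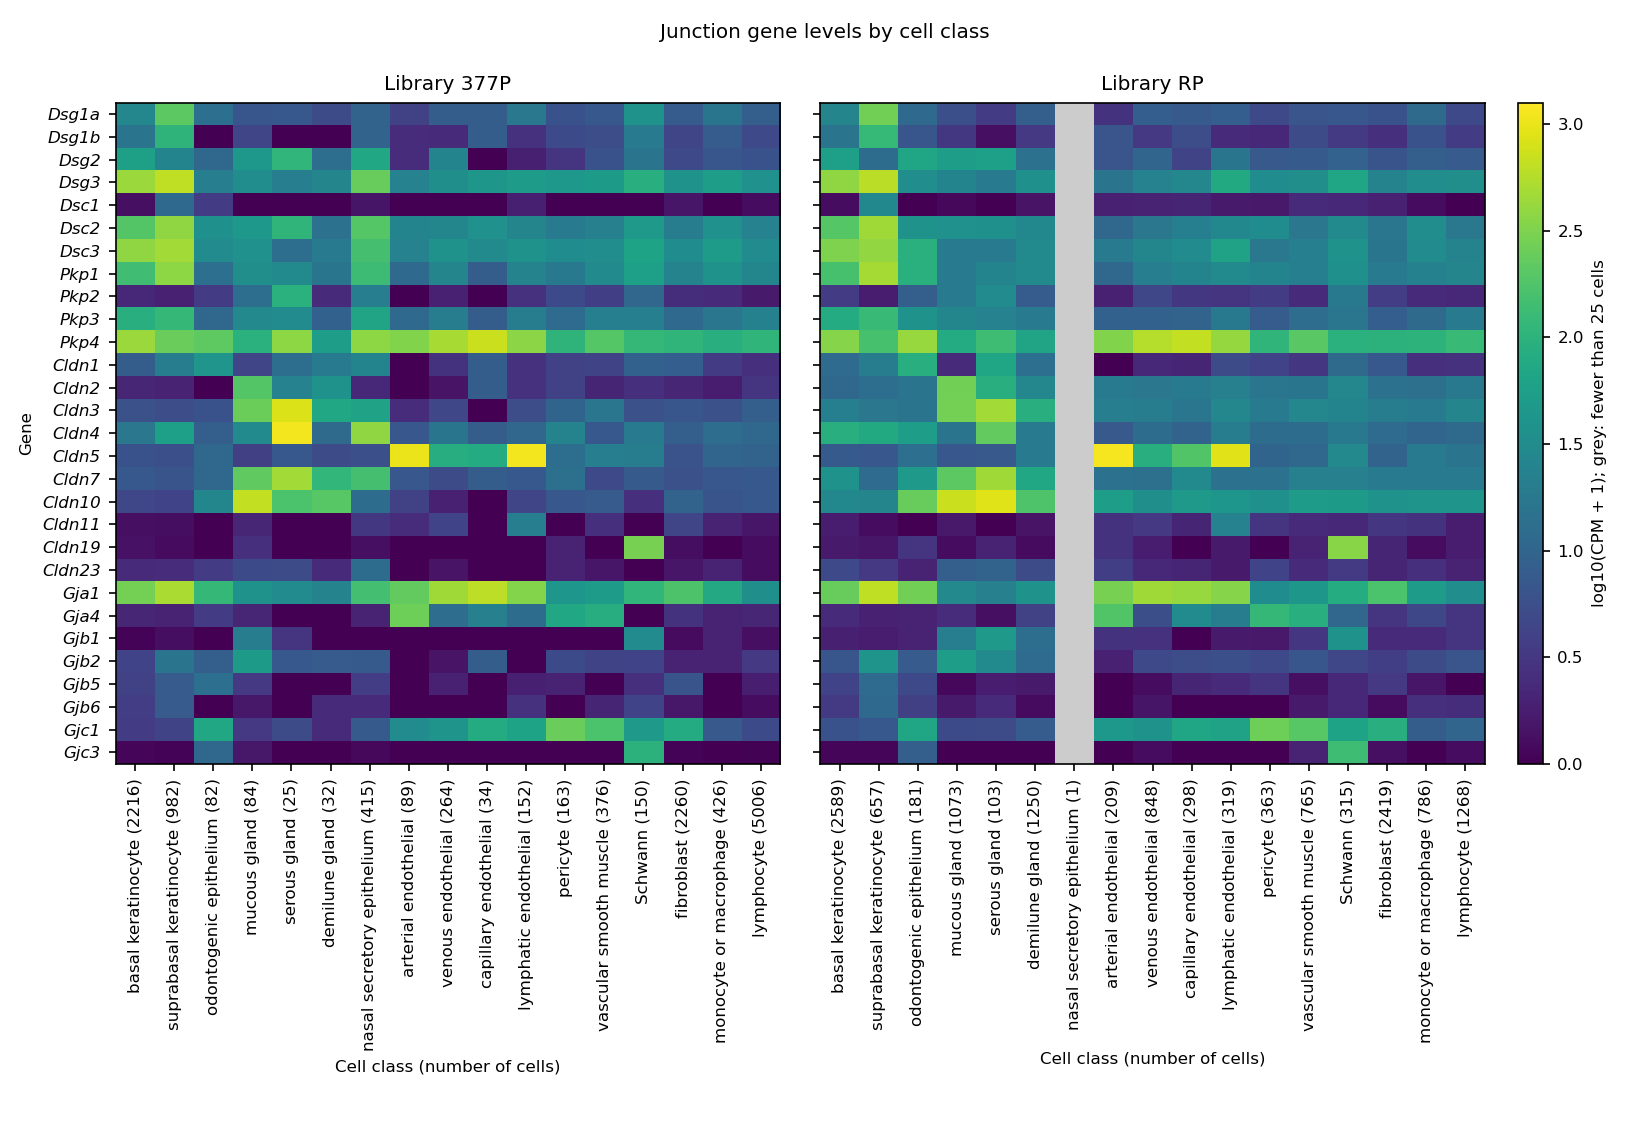
Levels of junction genes (rows) in 17 cell classes (columns) of library 377P and library RP, as log10(CPM + 1); grey marks classes with too few cells. Dsg1a, Dsg1b, Dsg3 and the desmocollins are highest in keratinocytes, Cldn10 and Cldn2 in gland, Cldn5 in arterial and lymphatic endothelium and Cldn19 in Schwann cells.

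Among the desmogleins, Dsg3, the desmoglein typical of oral epithelium, was present in both keratinocyte layers. Its level was 426 and 381 CPM in basal and 627 and 604 CPM in suprabasal keratinocytes, less than 2-fold apart. Lymphocytes, which build no desmosomes, had 35.6 and 33.1 CPM, and the lymphocyte level of a gene is used as its background level, except for Pkp4, which T or NK cells carried above B or plasma cells. Dsg3 UMIs were seen in 94.0% and 82.2% of basal cells, at median depths of 13748.5 and 9074 UMIs, and in 11.5% and 7.33% of lymphocytes, at 2879 and 2427.5 UMIs. With every cell thinned to 2000 UMIs, the shares were 52.8% and 49.0% of basal cells against 6.56% and 4.23% of lymphocytes.

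Dsg1a and Dsg1b, mouse copies of the desmoglein of upper layers, were higher in the named suprabasal cells than in basal cells. Dsg1a had 208 and 276 CPM in suprabasal and 25.9 and 24.5 CPM in basal keratinocytes, a difference of 8.02-fold (7.44 to 8.66) and 11.3-fold (10.3 to 12.4). Dsg1b had 104 and 119 CPM against 14.7 and 14.8 CPM, a difference of 7.08-fold (6.40 to 7.85) and 8.04-fold (7.13 to 9.08). The counting intervals of the layers did not overlap in either library. Dsg1a, Dsg1b and Dsg1c are close copies, so the split of reads between them is uncertain. Dsg2, the desmoglein of simple epithelia, was the single member past 2-fold on the basal side, with 56.7 and 55.0 CPM in basal and 23.7 and 11.4 CPM in suprabasal cells, a difference of 2.39-fold (2.15 to 2.67) and 4.81-fold (3.87 to 6.04). With coarser clusters, with doublets kept or with cells of at least 1000 UMIs alone, 0 members were past 2-fold there. Dsg2 also had 71.4 CPM in the nasal secretory cells of 377P and 110.1 and 55.8 CPM in serous gland, a class of 25 and 103 cells. Of the named classes with at least 50 cells, Dsg2 stood highest in nasal secretory cells in 377P and in odontogenic epithelium in RP.

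The desmocollins bind the desmogleins. Dsc3, the desmocollin typical of basal layers, had 381 and 319 CPM in basal and 473 and 392 CPM in suprabasal keratinocytes, under 2-fold apart. Dsc2, which is found in most epithelia, had 183 and 193 CPM in basal and 386 and 451 CPM in suprabasal cells, 2.11-fold (2.04 to 2.18) and 2.34-fold (2.24 to 2.44) higher there. Dsc1, the desmocollin of keratinising layers, had 10.4 and 26.8 CPM in suprabasal against 0.336 and 0.271 CPM in basal cells, 31.0-fold (16.9 to 63.1) and 99.0-fold (47.2 to 249) higher. The desmoglein and desmocollin genes lie in a row on chromosome 18. The basal counts of Dsc1 behind that were 11 UMIs in 377P and 7 in RP. A further cluster, cluster 35, was left unnamed and combined these genes in another way. It was led by Sprr1a and Muc5ac and held 50 cells of 377P and 423 of RP. In it 12 of 12 markers of its best-scoring list, that of suprabasal or of cornifying keratinocytes, were detected. Its cells are not counted in the suprabasal values. It had Dsc2 at 394 and 468 CPM and Dsg3 at 426 and 361 CPM, with Dsg1a at 21.3 and 11.2 CPM and Dsc1 at 2.66 and 0.708 CPM.

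Plakophilins link the cadherin tails to desmoplakin. Pkp1, the plakophilin of stratified epithelium, had 370.1 and 474 CPM in suprabasal against 141 and 159 CPM in basal cells, 2.63-fold (2.53 to 2.73) and 2.99-fold (2.86 to 3.13) higher. Pkp3, present in most epithelia, had 114 and 124 CPM in suprabasal and 88.5 and 80.3 CPM in basal cells. Pkp2, known from simple epithelia and heart, had 1.16 and 2.06 CPM over all keratinocytes and 21.3 and 17.3 CPM over gland or respiratory cells. Pkp4, a relative that also sits at adherens junctions, was spread widely. It had 434 and 342 CPM in basal keratinocytes, 496 and 566 CPM in venous and 366 and 404 CPM in lymphatic endothelium, 159 and 181 CPM in T or NK cells and 54.3 and 41.5 CPM in B or plasma cells. Thinned to 2000 UMIs, Pkp4 was found in 22.7% and 24.9% of T or NK cells and 8.45% and 5.95% of B or plasma cells.

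Between the layers, 31 of 60 members passed the filter of 20 UMIs over both layers in each library. Of these, 8 were at least 2-fold higher in suprabasal cells in both libraries and 1 in basal cells. Over all genes, 2.07% were past that limit on the suprabasal side and 3.23% on the basal side. The median log2 ratio of suprabasal over basal was 0.31 and 0.18 for the members and -0.10 and -0.25 for all genes. Besides the 5 desmosomal genes above, the 8 held the connexins Gjb2, Gjb5 and Gjb6. Gjb2, a connexin of skin, cochlea and gland, had 14.5 and 39.4 CPM in suprabasal against 3.15 and 5.76 CPM in basal cells, 4.61-fold (3.65 to 5.86) and 6.84-fold (5.60 to 8.38) higher. Gjb5, an epidermal connexin named after its values were seen, was 2.19-fold (1.66 to 2.90) and 3.40-fold (2.48 to 4.65) higher, and Gjb6, a connexin of skin and cochlea named in the same way, 2.60-fold (1.95 to 3.47) and 4.38-fold (3.11 to 6.21). Gja1, the most widespread connexin, had 502 and 635 CPM in suprabasal and 283 and 238 CPM in basal cells, past 2-fold in RP alone. Cldn4, a barrier claudin of many epithelia, had 54.9 and 75.5 CPM in suprabasal and 15.9 and 87.8 CPM in basal cells. Without cluster 36, whose cells all belong to RP, the basal level of Cldn4 in RP was 22.3 CPM, so that suprabasal cells were the higher in both libraries (a setting chosen after seeing the data).

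**Figure D2:**
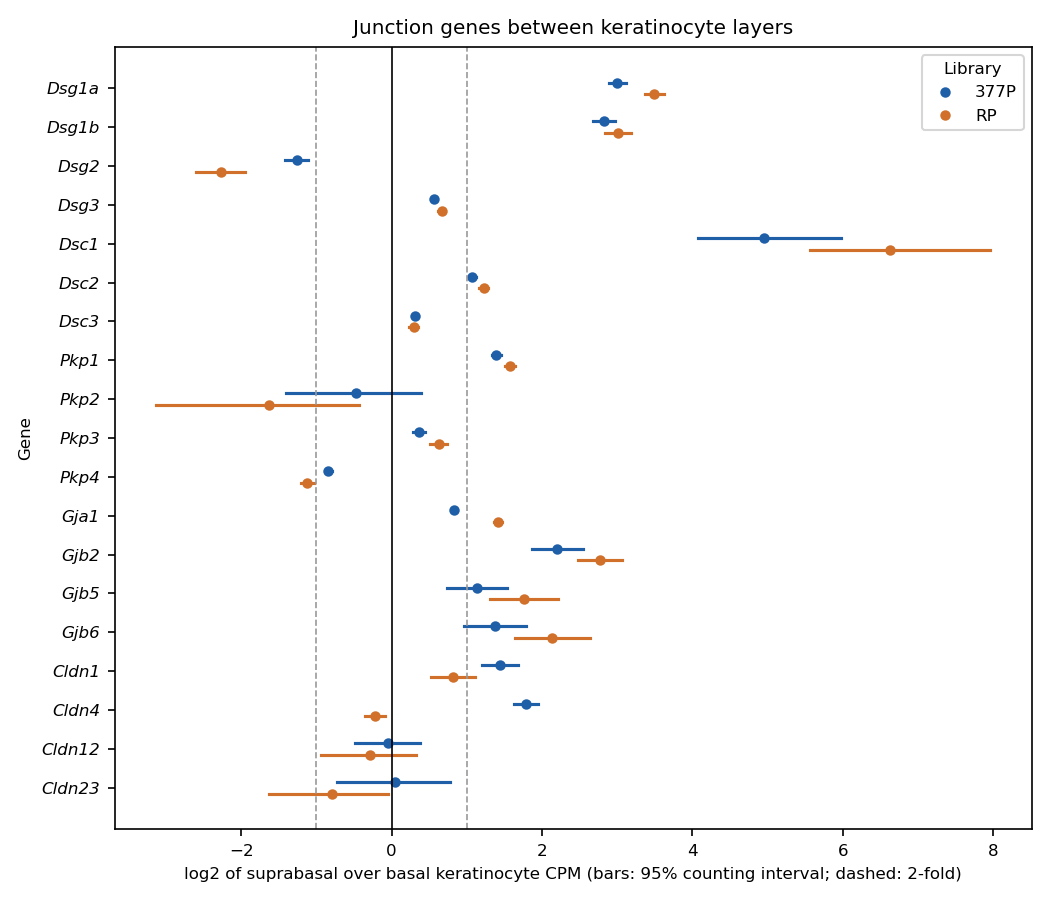
Log2 ratio of suprabasal over basal keratinocyte CPM for single members (rows) in each library (points) with 95% counting intervals (bars). Dsc1, Dsg1a, Dsg1b and Gjb2 lie furthest to the suprabasal side in both libraries, Dsg2 lies on the basal side, and Cldn4 lies on opposite sides of 0 in the libraries, where the basal cells of RP include cluster 36.

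Of 41 listed partner genes of these junctions, 39 passed the filter in the layers, 6 were past 2-fold on the suprabasal side and 0 on the basal side. They were Ppl and Evpl, plakins of the cornified envelope, Perp, a desmosomal membrane protein, Nectin4, an adhesion molecule, and the epithelial transcription factors Grhl1 and Grhl3. Perp had 2034 and 2345 CPM in suprabasal against 925 and 944 CPM in basal cells.

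Mucous gland carried a set of claudins. Cldn10, whose isoforms form ion channels, had 653 and 707 CPM there. Cldn2, which forms a channel for cations and water, had 186 and 272 CPM. Cldn3, a barrier claudin of simple epithelia, had 251 and 284 CPM, and Cldn7, a claudin that also lies along the lateral membrane, 218 and 207 CPM. For each of these 4 genes the mucous cells of the libraries, 84 and 1073 in number, differed by less than 1.5-fold. Cldn8, a claudin of tight epithelia, stood at 9.73 and 12.1 CPM. In serous gland Cldn10 had 165 and 888 CPM, and Cldn4 1113 and 223 CPM. Cldn22 had 19.8 CPM in the serous cells of RP, from 56 UMIs, and no UMI in those of 377P, where 3 UMIs would equal 6.12 CPM.

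Set against keratinocytes, 35 members passed the filter, 10 were at least 2-fold higher in gland or respiratory cells in both libraries and 8 in keratinocytes. Over all genes these shares were 9.12% and 4.39%. The median log2 ratio was 0.48 in 377P and -0.86 in RP for the members, and 0.10 and -0.34 for all genes. Cldn10 had 159.8 and 629.5 CPM in gland or respiratory cells against 3.40 and 26.6 CPM in keratinocytes, 47.0-fold (40.1 to 55.4) and 23.6-fold (22.1 to 25.3) higher. Cldn2 was 38.2-fold (28.7 to 51.8) and 19.4-fold (17.4 to 21.6) higher and Cldn3 31.3-fold (27.2 to 36.1) and 13.8-fold (12.7 to 14.9). The keratinocyte levels of Cldn10, Cldn2, Cldn3 and Cldn7 were at or under 3 times those of lymphocytes, the limit for calling a level background. Within that limit, Cldn7 in RP differed by layer, with 36.6 CPM in basal and 11.2 CPM in suprabasal cells against 18.3 CPM in lymphocytes. Cldn7 was 30.8-fold and 6.84-fold higher, Pkp2 18.4-fold and 8.39-fold, and Gjb1, a connexin of secretory cells and myelinating glia, 27.9-fold and 24.9-fold, at 3.90 and 21.5 CPM.

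On the keratinocyte side stood Dsg1a, Dsg1b, Dsg3, Dsc1, Dsc3, Pkp1, Gja1 and Gjb6. Dsg3 was 2.98-fold and 16.9-fold and Dsc3 3.74-fold and 16.6-fold higher in keratinocytes, so that the contrast was larger in RP. The other epithelium was mostly nasal in 377P and mostly gland in RP. In the nasal secretory cells of 377P the desmosomal genes were present, with Dsg3 at 236 CPM, Dsc3 at 153 CPM and Pkp1 at 131 CPM. With gland classes alone, a setting chosen after seeing the data, 15 members were on the keratinocyte side in place of 8, and with the members kept for clustering also 15. Of the partner genes, 9 of 39 were past 2-fold on the gland side, among them Epcam at 868 and 1000.5 against 157 and 215 CPM, and 4 on the keratinocyte side, among them Dsp, the desmoplakin gene, at 565 and 173 against 1170.4 and 1015 CPM.

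Cldn3 and Cldn4 are neighbours on chromosome 5, 39.3 kb apart. In the unnamed cluster 35 Cldn4 had 843 and 681 CPM and Cldn3 316 and 212 CPM. In the nasal secretory cells of 377P Cldn4 had 379 CPM and Cldn3 60.7 CPM, and in the 78 olfactory or other neuronal cells of 377P they had 47.7 and 362 CPM. In suprabasal keratinocytes Cldn3 was at background while Cldn4 had 54.9 and 75.5 CPM against 10.2 and 10.9 CPM in lymphocytes. The 250 bases before each start are shown for this pair, 5′ to 3′ on the gene's own strand, from RefSeq's table for GRCm38.p6, at chr5:134985964-134986213 (+ strand) for Cldn3 and chr5:134946935-134947184 (- strand) for Cldn4. Capitals mark matches on either strand to 5 motifs: the TATA box (TATAAA), the GC box (GGGCGG), the AP-1 site (TGANTCA), the grainyhead-like site (AACNNGTT) and the ETS site (CCGGAAGT).
Cldn3: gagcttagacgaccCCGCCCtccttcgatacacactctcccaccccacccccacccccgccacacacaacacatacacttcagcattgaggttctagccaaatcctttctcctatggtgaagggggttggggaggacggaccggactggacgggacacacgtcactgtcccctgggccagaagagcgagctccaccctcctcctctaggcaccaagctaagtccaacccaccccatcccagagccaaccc
Cldn4: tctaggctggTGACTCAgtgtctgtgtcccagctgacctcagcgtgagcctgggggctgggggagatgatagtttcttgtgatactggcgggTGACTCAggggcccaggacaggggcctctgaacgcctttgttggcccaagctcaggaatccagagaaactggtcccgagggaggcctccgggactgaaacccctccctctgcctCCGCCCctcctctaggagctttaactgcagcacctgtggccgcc
Each stretch holds 1 GC box, a motif found in 32.7% of the 32851 promoters of that length in the table. The Cldn4 stretch holds 2 AP-1 sites, 240 and 158 bases before the start, a motif in 6.75% of all promoters, and these letters are not in the Cldn3 stretch. They are matches of letters, and no binding was measured.

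Cldn23 and Cldn1 each had a different pattern. Cldn23, a claudin of surface epithelia, had 303 CPM (192 to 455) and 453 CPM (402 to 509) in cluster 41, an unnamed cluster of 14 and 90 cells led by Psca and Clca3b. It had 30.1 and 40.9 CPM in cluster 35 and 0.274 and 1.02 CPM in lymphocytes. Cldn1, the main barrier claudin of epidermis, had 7.28 and 11.1 CPM in basal and 19.8 and 19.6 CPM in suprabasal keratinocytes and 40.3 and 88.8 CPM in odontogenic epithelium. It was also present in blood cells of the myeloid line, with 70.5 CPM (49.7 to 97.2) and 56.2 CPM (38.2 to 79.7) in neutrophils and 75.2 and 22.3 CPM in dendritic cells, against 2.48 and 1.60 CPM in monocytes or macrophages. Thinned to 2000 UMIs, Cldn1 was found in 9.64% and 14.7% of neutrophils and 0.328% and 0.249% of lymphocytes.

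Cldn5, the tight junction claudin of endothelium, divided the vessels by kind. Arterial cells had 1029.6 and 1140.3 CPM, lymphatic cells 1110.0 and 919 CPM and venous cells 84.8 and 89.8 CPM. Cldn5 was thus 12.1-fold (10.3 to 14.3) and 12.7-fold (11.3 to 14.3) higher in arterial than in venous endothelium, and 13.1-fold (11.2 to 15.3) and 10.2-fold (9.09 to 11.5) higher in lymphatic endothelium. Capillary cells, 34 and 298 in number, had 78.7 and 180.3 CPM. At 2000 UMIs per cell, Cldn5 was found in 79.5% and 79.4% of arterial, 73.2% and 71.4% of lymphatic and 8.0% and 10.2% of venous cells, and in 1.56% and 2.61% of lymphocytes. Cldn11, a claudin of myelin and testis, had 20.1 and 22.5 CPM in lymphatic against 3.18 and 2.31 CPM in venous cells, 6.32-fold (2.63 to 17.5) and 9.72-fold (4.55 to 23.1) higher. The 250 bases before the start of Cldn5, at chr16:18776597-18776846 (+ strand) of GRCm38.p6, are shown since it was the member past 2-fold in both vessel contrasts, with the same 5 motifs in capitals.
Cldn5: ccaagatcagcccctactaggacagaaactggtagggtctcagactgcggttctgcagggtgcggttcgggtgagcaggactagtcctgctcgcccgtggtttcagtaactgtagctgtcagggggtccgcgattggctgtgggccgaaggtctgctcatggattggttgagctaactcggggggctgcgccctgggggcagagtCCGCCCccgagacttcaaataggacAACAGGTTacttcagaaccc
The stretch holds 1 GC box and 1 grainyhead-like site, 45 and 20 bases before the start, and 3.64% of all promoters hold the latter motif.

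The connexins of vessels differed in level between lining and wall, and Gja4 and Gjc1 were present in both. Gja4, a connexin of arterial endothelium, had 257 and 182 CPM in arterial and 11.8 and 4.63 CPM in venous cells, 21.8-fold (14.4 to 34.3) and 39.4-fold (24.3 to 67.8) higher. It was also present in pericytes at 71.1 and 115 CPM and in vascular smooth muscle at 85.2 and 88.4 CPM, with 1.15 and 2.04 CPM in lymphocytes. Gjc1, a connexin of smooth muscle and heart, had 243 and 256 CPM in pericytes, 166 and 196 CPM in smooth muscle and 80.8 and 89.1 CPM in fibroblasts. In the lining Gjc1 had 39.0 and 38.3 CPM in venous, 30.1 and 44.0 CPM in arterial and 62.0 and 60.0 CPM in lymphatic cells. Lymphocytes had 3.95 and 9.16 CPM. Gja1 had 450.1 and 451 CPM in venous and 224 and 287 CPM in arterial endothelium, and 41.1 and 31.4 CPM in pericytes, near the lymphocyte level of 34.2 and 32.1 CPM.

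Between arterial and venous cells, 13 members passed the filter. Gja4 and Cldn5 were past 2-fold on the arterial side in both libraries, where 2.91% of all genes were, and 0 members on the venous side, where 4.26% of genes were. Between lymphatic and venous cells 15 members passed, with Cldn5 and Cldn11 on the lymphatic side (4.63% of all genes; 1 member with a filter of 50 UMIs) and 0 on the venous side (5.83%). Between pericytes and smooth muscle 14 members passed and 0 were past 2-fold in both libraries on the pericyte side (5.64% of all genes) and 0 on the smooth muscle side (5.1%). Among partners, Cgnl1, which encodes a junction plaque protein, had 231 and 245 CPM in arterial and 53.5 and 58.1 CPM in venous cells. Jam2, an adhesion molecule of tight junctions, had 157 and 209.6 CPM in venous and 1.75 and 8.86 CPM in lymphatic cells.

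**Figure D3:**
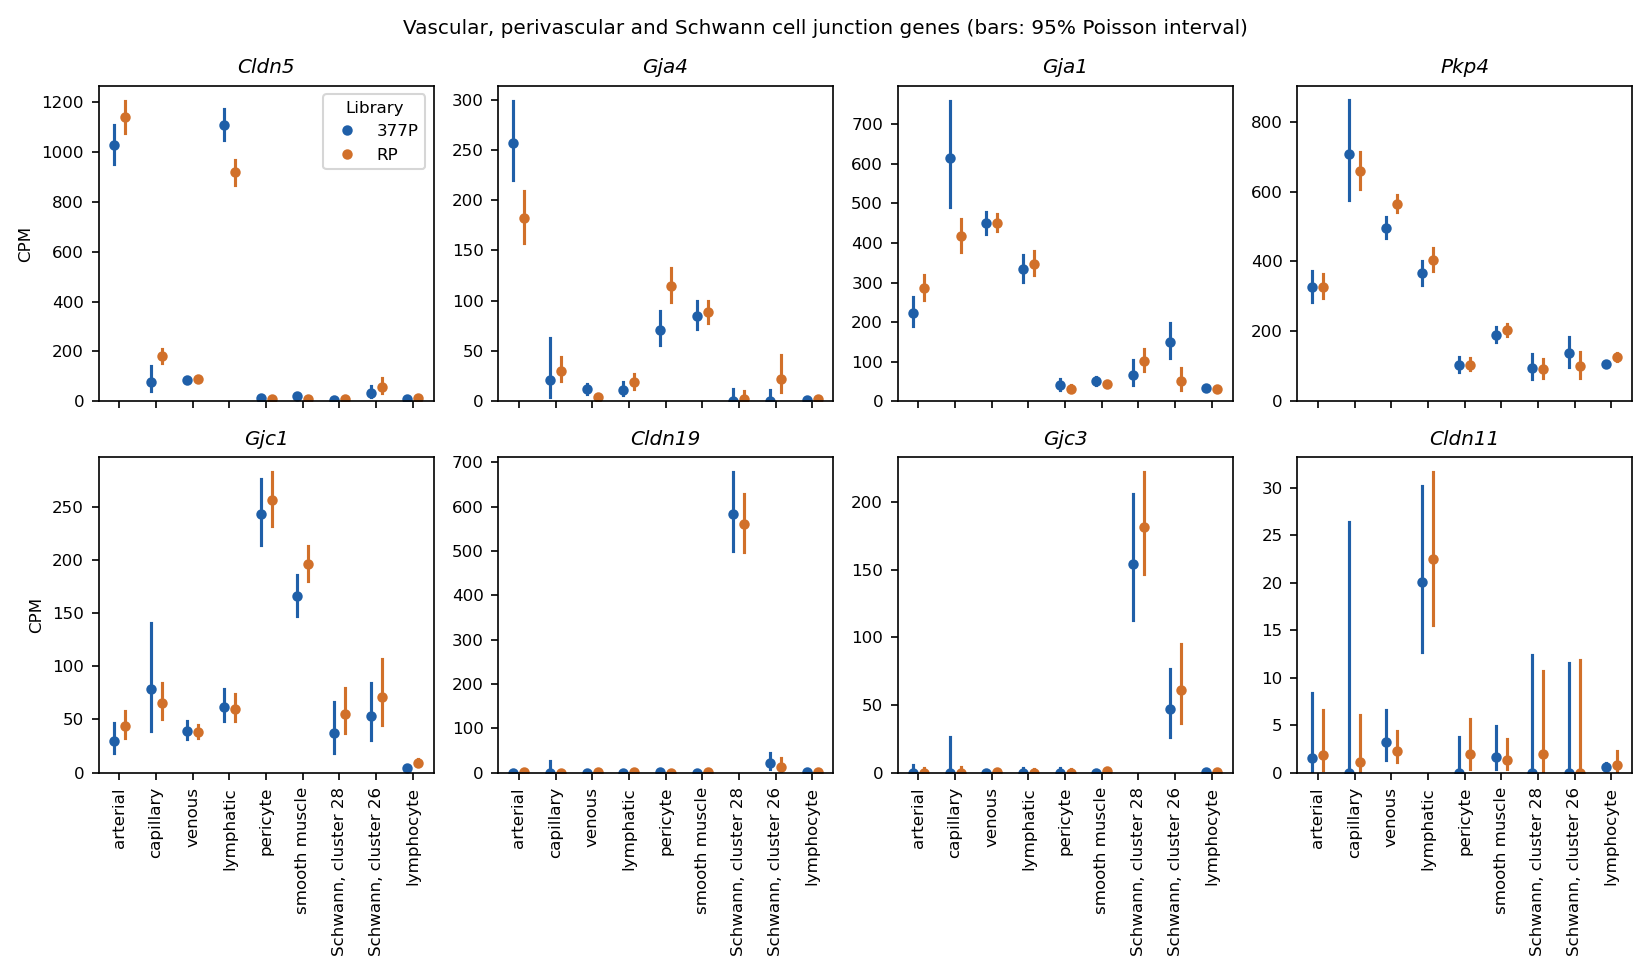
Levels in CPM (points) with 95% Poisson intervals (bars) of 8 members in vessel, wall and Schwann cells and in lymphocytes of each library. Cldn5 and Gja4 are high in arterial cells of both libraries, Cldn5 also in lymphatic cells, Gjc1 in pericytes and smooth muscle, and Cldn19 and Gjc3 in cluster 28 of the Schwann cells.

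In nerve, Cldn19, the tight junction claudin of Schwann cells, was high in 1 of the 2 Schwann clusters. Cluster 28 had 584 CPM (500.3 to 677) and 561 CPM (498 to 629), while cluster 26, led by Cadm2, had 21.8 and 12.9 CPM. Outside the Schwann clusters, no class or cluster of at least 50 cells was above 3.41 CPM of Cldn19. Gjc3, a connexin of myelinating glia, had 154 and 182 CPM in cluster 28 and 46.7 and 61.1 CPM in cluster 26. Gjb1 had 60.4 and 61.2 CPM in cluster 28, which held 74 cells of 377P and 198 of RP.

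Several claudins had low levels. Cldn9, a claudin of the inner ear and of nasal epithelium, had 39.1 CPM in the olfactory or other neuronal cells of 377P, 78 in number. It was also past 2-fold on the gland or respiratory side against keratinocytes in both libraries. There it had 10.3 and 0.602 CPM, from 92 and 15 UMIs, against 0.140 and 0.149 CPM in keratinocytes. Cldn12, which lacks the usual claudin end that binds scaffold proteins, had 12.7 and 10.3 CPM in venous endothelium and 1.26 and 1.27 CPM in lymphocytes. Cldn15, a channel-forming claudin of gut, had 6.01 and 11.9 CPM in arterial endothelium, from 4 and 13 UMIs, and stood highest in neutrophils in 377P. Cldn34c1 had 2.55 and 2.49 CPM over all cells. The claudins Cldn6, Cldn14, Cldn17, Cldn18 and Cldn20 and the connexins Gja3 and Gja6 had 28 to 80 UMIs each over both libraries.

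Members that lie side by side on the genome did not all have the same site. Gjb2 and Gjb6 lie 18.6 kb apart on chromosome 14. Both were higher in suprabasal than in basal keratinocytes. In mucous gland Gjb2 had its highest level of a named class, 47.5 and 51.9 CPM, while Gjb6 had 1 and 12 UMIs there. Their upstream stretches are shown for that contrast, at chr14:57104703-57104952 (- strand) for Gjb2 and chr14:57133612-57133861 (- strand) for Gjb6, in GRCm38.p6 and with motifs in capitals as above.
Gjb2: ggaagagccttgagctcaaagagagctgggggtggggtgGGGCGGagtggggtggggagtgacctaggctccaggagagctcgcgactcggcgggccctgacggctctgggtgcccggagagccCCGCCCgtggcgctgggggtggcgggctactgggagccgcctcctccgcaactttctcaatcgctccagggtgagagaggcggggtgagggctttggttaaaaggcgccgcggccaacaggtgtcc
Gjb6: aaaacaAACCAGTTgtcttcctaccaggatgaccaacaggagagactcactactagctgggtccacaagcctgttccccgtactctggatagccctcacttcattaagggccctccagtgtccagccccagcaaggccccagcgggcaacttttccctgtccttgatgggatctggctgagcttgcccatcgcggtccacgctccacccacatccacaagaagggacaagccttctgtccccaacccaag
The Gjb2 stretch has 2 GC boxes and 18 CpG dinucleotides. The Gjb6 stretch has 5 CpG dinucleotides and 1 grainyhead-like site, 244 bases before the start, and the median of all promoters is 6 CpG. Of the 60 members, 35 had an entry in the promoter table.

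Between the libraries, 8 classes had at least 200 cells in each, and members needed 20 UMIs over both. For keratinocytes, fibroblasts and lymphocytes the libraries were compared largely across different clusters, as given above. The counts past 2-fold, higher in RP and higher in 377P, are given with the share of all genes past the same limit. In basal keratinocytes they were 9 (7.71% of all genes) and 0 (1.89%) of 33 members that passed the filter, and in suprabasal keratinocytes 6 (4.63% of all genes) and 1 (3.45%) of 30. In fibroblasts they were 7 (3.39% of all genes) and 4 (3.98%) of 30, in venous endothelium 4 (3.44% of all genes) and 3 (3.66%) of 19 and in vascular smooth muscle 3 (3.42% of all genes) and 0 (2.67%) of 20. In monocytes or macrophages they were 5 (4.64% of all genes) and 0 (2.39%) of 17, in T or NK cells 6 (7.06% of all genes) and 0 (2.83%) of 19 and in B or plasma cells 5 (5.65% of all genes) and 1 (3.58%) of 18. Partner genes past 2-fold numbered 8 higher in RP and 0 higher in 377P in basal keratinocytes, out of 39.

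In the 6 of these classes that are not lymphocytes, members were at least 2-fold higher in RP 34 times. In 30 of these the level was at or under 3 times that of lymphocytes and is called background. The gland claudins Cldn2, Cldn3, Cldn7 and Cldn10 made up 23 of the 34. In lymphocytes themselves Cldn10 had 6.19 and 39.4 CPM, 6.37-fold (4.96 to 8.19) higher in RP, and Cldn2 had 1.92 and 17.0 CPM, 8.89-fold (5.82 to 13.8). Cldn3 was 3.20-fold and Cldn7 3.01-fold higher in RP lymphocytes. Over the 6 other classes Cldn10 ran from 0.907 to 8.76 CPM in 377P and from 24.4 to 50.05 CPM in RP. The number of gland or respiratory cells was also higher in RP, 2454 against 561, and its part in these levels was not tested. Of those in RP, 1250 were demilune cells with a median of 662 UMIs. Over all 8 classes 45 differences of members were higher in RP and 9 in 377P, with the shares of all genes per class as above. With the lymphocyte level subtracted from every class outside the lymphocytes these numbers were 17 and 19. No share over all genes was taken after the subtraction, so the change cannot be read as particular to the members.

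**Figure D4:**
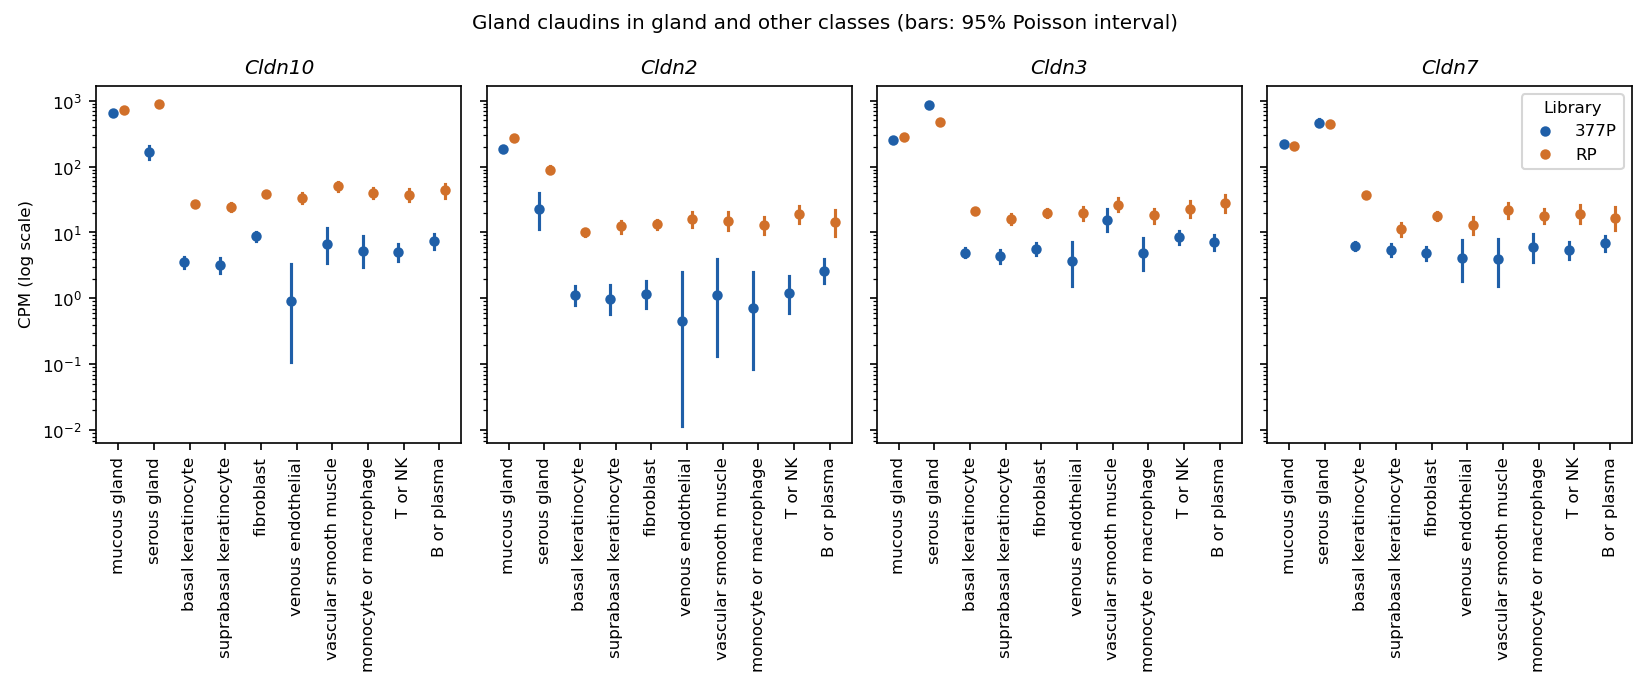
Levels in CPM on a log scale (points) with 95% Poisson intervals (bars) of 4 gland claudins in 10 classes of each library. The mucous gland levels are close in the libraries, while the classes outside the gland are higher in RP. Over T, NK, B and plasma cells together, the lymphocytes, Cldn10 had 39.4 CPM in RP and 6.19 CPM in 377P.

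Above background, 4 differences were higher in RP. Cldn4 had 15.9 CPM (520 UMIs) in basal keratinocytes of 377P and 87.8 CPM (2271 UMIs) in those of RP, 5.52-fold (5.02 to 6.09) higher. Of the RP counts, 1842 came from cluster 36, whose 710 cells all belong to RP and which is led by BC037156 and Cdo1, with a Cldn4 level of 279 CPM. Without cluster 36, a setting chosen after seeing the data, the RP level was 22.3 CPM and the fold 1.40 (1.23 to 1.59). With coarser clusters (resolution 1.0) the log2 ratio of Cldn4 was 0.59 in place of 2.47. In suprabasal keratinocytes Gjb2 had 14.5 and 39.4 CPM, 2.71-fold (2.29 to 3.22) higher in RP, and Dsc1 10.4 and 26.8 CPM, 2.57-fold (2.10 to 3.16). Cldn23 had 1.41 and 3.87 CPM in basal keratinocytes.

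On the side of 377P, Dsg2 had 23.7 and 11.4 CPM in suprabasal keratinocytes, 2.08-fold (1.64 to 2.65) higher in 377P. In venous endothelium it had 24.0 and 9.26 CPM, from 53 and 36 UMIs, 2.60-fold (1.67 to 4.08) higher in 377P. Arterial and lymphatic cells had 1 UMI of Dsg2 each in 377P, and 6 and 22 UMIs in RP. Gja4 had 11.8 and 4.63 CPM in venous endothelium, 2.55-fold (1.34 to 4.93), and in fibroblasts Gjb5 had 5.41 and 2.30 CPM. The suprabasal differences depended on which cells were called suprabasal. With the members kept for clustering, the log2 ratio of RP over 377P was -0.07 for Gjb2, -0.08 for Dsc1 and 0.97 for Dsg2, each on the other side of 0 from its value above. With each library clustered on its own, it was 1.75 for Dsg2 and -0.79 for Dsc1.

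In the clusters used above, the abundant desmosomal genes differed by smaller folds between the libraries within a layer. In basal keratinocytes Dsc3 was 1.20-fold (1.16 to 1.23) and Pkp4 1.27-fold (1.24 to 1.30) higher in 377P, and Pkp1 1.13-fold (1.08 to 1.18) higher in RP. In suprabasal cells Dsc3 was 1.21-fold (1.16 to 1.26) and Pkp4 1.54-fold (1.45 to 1.65) higher in 377P, and Dsg1a 1.33-fold (1.26 to 1.40) higher in RP. With the members kept for clustering Dsg1a was higher in 377P instead, with a log2 ratio of -0.50, and the ratios of Pkp1 in basal and Pkp4 in suprabasal cells also switched side. Dsg1a was higher in 377P too at resolution 1.0, with doublets kept and from 1000 UMIs a cell. With libraries clustered apart its log2 ratio was -1.22, past 2-fold, so its direction depended on which cells were called suprabasal. Among connexins, Gja1 was 1.19-fold (1.15 to 1.23) higher in basal keratinocytes of 377P, and Gjc1 1.18-fold (1.02 to 1.36) higher in smooth muscle of RP. The counting intervals leave out the spread between animals and libraries, which 1 library per title cannot give.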

How the data were processed

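Both libraries were made from polyA RNA with droplet chemistry that tags each molecule at its 3' end. The deposited values are raw UMI counts per gene and barcode, written by Cell Ranger 7.0.1 per the file headers; Cell Ranger, STAR and mm10 are named in the submitters' processing notes. Annotation release, intron setting and use of strand are not stated there, so reads of Cldn3, Cldn10, Cldn19, Cldn22 and Dsg2, which overlap a gene on the other strand in GENCODE M21, and of Pkp1, which overlaps one on its own strand, may be shared. The libraries held 15466 barcodes (377P, 127094166 UMIs) and 18112 (RP, 120909095 UMIs), and no barcode was under 500 UMIs.

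Barcodes with under 200 genes or over 20% mitochondrial UMIs were left out, as were doublets called with Scrublet in Scanpy 1.11.5 (5.45% of 377P and 3.29% of RP). Both libraries were clustered together (3000 variable genes without the members, 40 components, 20 neighbours, Leiden in igraph 0.11.9 at resolution 2), with NumPy 2.4.6, SciPy 1.17.1 and scikit-learn 1.9.0. Some limits for naming clusters were set after the clusters were seen. UMIs were summed per class and library. A gene needed 20 UMIs for a comparison, and a 2-fold difference was counted. Thinning to 2000 UMIs left out 2312 cells of 377P and 4100 of RP. Genes are named between libraries by the 3 with the largest bound per direction, if at 20 CPM and 20% of their highest class, and within libraries by the 6 past the limit on the same side in both; members at 50 CPM in a named class are given with their level. The interval script was tested on simulated data. The members and lists were chosen with earlier results of these data known. Some members are not reported here by name. Alternatives were other clusterings, depths, filters, denominators and limits.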

Additional observations from a re-analysis of the deposited data

How the results depend on the processing

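The counts of members by tissue of highest level and of members higher in suprabasal than in basal cells stayed within 1.5 times of 25 and 8 under each alternative that gave a value, from 21 to 30 and from 6 to 12. Members on the basal side numbered 1, and 2 with members kept for clustering, 0 at resolution 1.0, 0 with doublets kept, 0 from 1000 UMIs a cell, 3 with lymphocyte level subtracted, 2 at 1.5-fold. Members on the keratinocyte side numbered 8, and 15 with members kept for clustering, 15 with gland classes alone. Members on the venous side against arterial cells numbered 0, and 1 with members kept for clustering, 1 at resolution 1.0, 2 from 1000 UMIs a cell, 2 at a mitochondrial limit of 10%, 1 with libraries clustered apart, 1 with no filter, 6 at 1.5-fold. Partners higher in 377P numbered 5, and 2 at resolution 1.0, 14 with libraries clustered apart, 21 with lymphocyte level subtracted, 10 with no filter, 20 at 1.5-fold. Members higher in 377P numbered 9, and 5 from 1000 UMIs a cell, 16 with libraries clustered apart, 19 with lymphocyte level subtracted, 4 over clusters with 50 cells of each library, 37 with no filter, 25 at 1.5-fold. Members on the venous side against lymphatic cells numbered 0, and 1 at a mitochondrial limit of 10%. Partners higher in RP numbered 37, and 23 with cells thinned, 18 with lymphocyte level subtracted, 15 over clusters with 50 cells of each library, 23 with a filter of 50 UMIs, 64 at 1.5-fold. Members on the gland side numbered 10, and 6 with cells thinned, 16 with no filter. Members on the lymphatic side numbered 2, and 1 with cells thinned, 1 with a filter of 50 UMIs. Members higher in RP over the 8 classes numbered 45, and 17 with lymphocyte level subtracted, 21 over clusters with 50 cells of each library, 105 with no filter. Members on the smooth muscle side numbered 0, and 2 with lymphocyte level subtracted, 3 at 1.5-fold. Members on the arterial side numbered 2, and 7 with no filter. Members on the pericyte side numbered 0, and 1 with no filter. Log2 ratios of RP over 377P switched sign as follows. With members kept for clustering it was -0.19 for Pkp1 in basal cells, -0.26 for Dsc2 in basal cells, 0.97 for Dsg2 in suprabasal cells, 0.11 for Pkp4 in suprabasal cells, -0.071 for Gjb2 in suprabasal cells, -0.083 for Dsc1 in suprabasal cells, -0.50 for Dsg1a in suprabasal cells. At resolution 1.0 it was 0.072 for Gja1 in basal cells, 0.13 for Pkp4 in fibroblasts, 0.78 for Dsg2 in suprabasal cells, -0.49 for Dsg1a in suprabasal cells. With doublets kept it was -0.034 for Dsc2 in basal cells, 0.33 for Dsg2 in suprabasal cells, -0.38 for Dsg1a in suprabasal cells. From 1000 UMIs a cell it was -0.057 for Dsc2 in basal cells, 0.54 for Dsg2 in suprabasal cells, -0.53 for Dsg1a in suprabasal cells. At a mitochondrial limit of 10% it was 0.0092 for Pkp4 in fibroblasts. With libraries clustered apart it was -0.21 for Pkp1 in basal cells, -0.33 for Dsc2 in basal cells, 1.75 for Dsg2 in suprabasal cells, -0.79 for Dsc1 in suprabasal cells, -1.22 for Dsg1a in suprabasal cells. With cells thinned it was -0.092 for Dsc2 in basal cells. Without cluster 36 it was -0.015 for Dsc2 in basal cells. The cause was not tested for any of these, and no share over all genes was taken under the alternatives. The settings without cluster 36 and with gland classes alone were chosen after seeing the data. Over clusters with 50 cells of each library the layers gave no value, and with libraries clustered apart, with the members kept for clustering or at resolution 1.0 pericytes and smooth muscle gave none. No paired analysis was possible because the labels give no replicate numbers and each title has 1 library. Depth limits classes with few UMIs, which shows in the width of their counting intervals.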
